A study of Homo sapiens with 10 samples.

Results

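Expression of 10 genes that read out or receive WNT signals was examined in D425 and HD-MB03 cells, human cell lines of Group 3 medulloblastoma, a cerebellar tumour of childhood. The members were chosen by symbol, with earlier results of these data known: AXIN2, LEF1, TCF7, TCF7L1, TCF7L2, NKD1, RNF43, LGR5, DKK1 and CTNNB1, 10 of the 57820 gene identifiers in the deposited counts. Poly(A)-selected RNA was sequenced from 10 libraries. D425 gave 3 control libraries, 2 of parental cells and 1 of cells with the empty vector, and 3 libraries labelled shCRX. HD-MB03 gave 2 control libraries, 1 parental and 1 with the empty vector, and 2 libraries labelled shCRX. The label shCRX means a stable polyclonal population carrying a Tet-pLKO-puro lentiviral vector with a doxycycline-inducible hairpin against CRX, the photoreceptor transcription factor that Group 3 tumours also express. Cells received doxycycline for 72 h at 4 µg/ml. There were 2 different hairpins, and no label ties a library to one of them. The parental controls never received a vector.

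In the canonical WNT pathway, a WNT ligand binds a Frizzled receptor together with an LRP co-receptor and stops the destruction complex from degrading β-catenin, the product of CTNNB1. β-catenin then enters the nucleus and joins a DNA-binding factor of the TCF/LEF family, which without it holds target genes off. AXIN2, NKD1, RNF43, LGR5, LEF1, TCF7 and DKK1 are textbook targets of this step in many tissues, and several of them feed back on the pathway. In medulloblastoma, activating CTNNB1 mutations mark a separate molecular subgroup, WNT, and not Group 3.

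The reads counted in genes ranged from 1956353 to 18061910 per library. Within each line, controls and libraries labelled shCRX came from different ranges of the library number in the deposited names: 5 libraries (D425 shCRX and HD-MB03 control) are numbered 20 to 62 and hold 1956353 to 9533407 reads, and 5 (D425 control and HD-MB03 shCRX) are numbered 110 to 136 and hold 11357936 to 18061910 reads. Within a line, arm and number range cannot be told apart. In the 2 HD-MB03 controls, 26.4% and 30.9% of reads were not aligned, against 4.54% to 7.99% in the other 8 libraries. The Group 3 and photoreceptor-type markers, 9 of 9 matched, summed to 2231 to 4131 CPM (counts scaled to a common effective library size) per library, and 0 to 3 of them were at 0. Within D425 this sum, which includes CRX, was 3569 to 3957 CPM in controls and 2231 to 2897 CPM in shCRX. The fibroblast and mesenchyme markers, 12 of 12 matched, summed to 32.6 to 43.3 CPM in D425 controls (1 to 4 at 0) and to 56.7 to 96.0 CPM in D425 shCRX (3 to 4 at 0), with FAP at 0 in all 6 libraries. Both sums move with the arm in D425, and their part in the D425 differences below was not tested.

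CRX itself checks the labels. It was at 47.5, 29.7 and 64.9 CPM in D425 controls and at 20.3, 20.9 and 25.3 in D425 shCRX libraries, and fell (log2 difference -1.10, SE 0.26, edgeR adjusted p = 0.0436). That call was kept in 7 of 21 alternatives and was lost without HD-MB03 shCRX 2 (adjusted p = 0.0543) and without any other library except D425 parental 2. In HD-MB03 it was at 12.5 and 12.3 CPM in controls and at 27.7 and 23.5 CPM in the libraries labelled shCRX, a log2 difference of 1.04 (SE 0.36, edgeR adjusted p = 0.174). CRX was thus not lower in the HD-MB03 libraries labelled shCRX, and every direction given for that arm rests on its label.

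One library stood apart in a way that touches the members. In HD-MB03 shCRX 2, 350 genes had at least 15 counts while each of the other 3 HD-MB03 libraries had at most 2. In each of the other 9 libraries, the same comparison within its line gave 0 to 11 genes. The 350 genes held 0.152% of that library's reads and included LEF1, RNF43 and LGR5, as well as 28 HOX genes. Against HD-MB03 shCRX 1, which has about the same depth, 210 genes had at least 15 counts in HD-MB03 shCRX 2 and 0 there, and 0 genes showed the reverse. The epithelial markers, 6 of 6 matched, summed to 28.4 CPM in HD-MB03 shCRX 2, where 2 of them, KRT19 and KRT5, were at 0. EPCAM had 22 counts (1.58 CPM) and KRT18 59 (4.23 CPM) in that library. They summed to 0.143 CPM in HD-MB03 shCRX 1 and to 0.520 and 1.61 CPM in the HD-MB03 controls, where EPCAM and KRT18 were at 0 counts, and to 2.58 to 14.8 CPM in D425. The source of these reads was not tested. Many of the members' tests and of the counts of calls are given with and without this library.

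**Figure D1:**
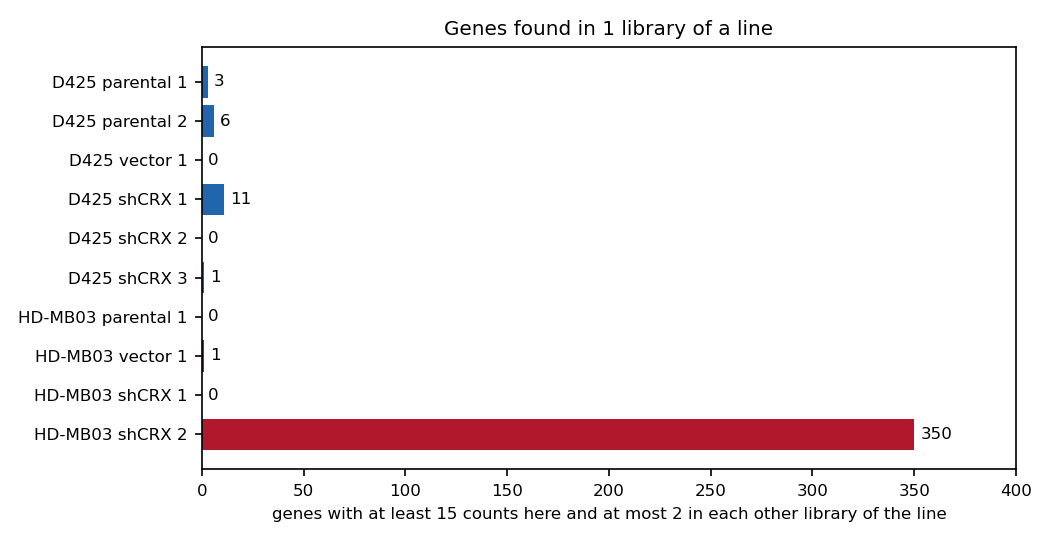
Number of genes with at least 15 counts in a library and at most 2 in each other library of the same line, for the 10 libraries (bars start at 0, labels give the number). HD-MB03 shCRX 2 holds 350 such genes and the other 9 libraries 0 to 11.

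The pathway's hub CTNNB1 and the factors TCF7L1 and TCF7L2 were the most abundant members per length in both lines. AXIN2, NKD1 and TCF7 were lower but had counts in all 10 libraries. LEF1, RNF43, LGR5 and DKK1 had 0 counts in some libraries. Levels between genes were compared as CPM per kb of exon, taken over the union of all annotated exons, which is longer than any single transcript. In D425 the means ran from CTNNB1 at 52.9 CPM per kb through TCF7L1 at 13.8, TCF7L2 at 3.61, LEF1 at 1.49, AXIN2 at 0.981, NKD1 at 0.732 and TCF7 at 0.477 to LGR5 at 0.0739, RNF43 at 0.0542 and DKK1 at 0.00687 (n = 6 libraries). The first 3 did not overlap with any neighbour in this order. LEF1 (0.559 to 2.05 CPM per kb), AXIN2 (0.729 to 1.32), NKD1 (0.264 to 1.73) and TCF7 (0.163 to 1.23) overlapped each other, TCF7 overlapped LGR5, and so did the last 3 among themselves.

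In HD-MB03 without shCRX 2, CTNNB1 averaged 34.7 CPM per kb, TCF7L1 31.6, TCF7L2 7.92, AXIN2 1.78, NKD1 0.521 and TCF7 0.136, and LEF1, RNF43, LGR5 and DKK1 had 0 counts (n = 3 libraries). CTNNB1 (26.3 to 41.1 CPM per kb) and TCF7L1 (28.6 to 33.2) overlapped there, which they did not in D425. TCF7L2, AXIN2, NKD1 and TCF7 each stood clear of their neighbours. With shCRX 2 included, the order of the first 6 was the same, with AXIN2 at 1.61, NKD1 at 0.495 and TCF7 at 0.194 CPM per kb, and LEF1 then had a mean of 0.127 (n = 4 libraries). These are bulk libraries, in which fewer cells with a transcript and less of it per cell cannot be told apart.

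**Figure D2:**
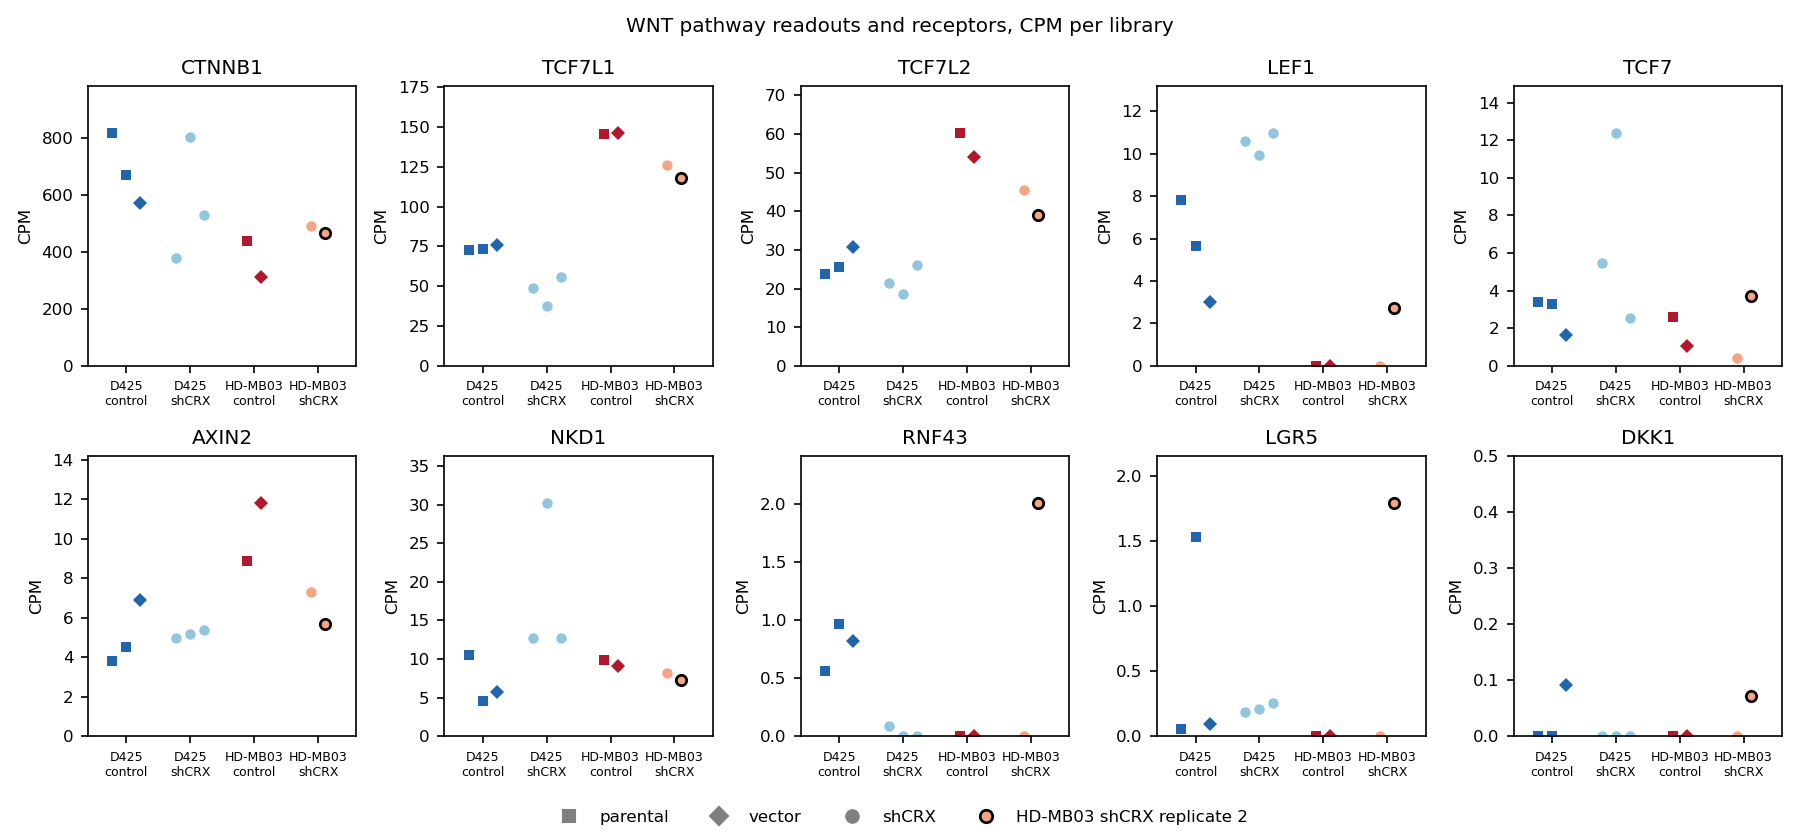
CPM (y axis, linear, own scale in each panel) of the 10 members in each of the 10 libraries, grouped by line and arm; squares are parental, diamonds vector and circles shCRX libraries, with HD-MB03 shCRX 2 ringed in black. TCF7L1 lies between 37.8 and 75.9 CPM in D425 and between 118 and 146 in HD-MB03, and LEF1 is above 0 in all 6 D425 libraries but in 1 of 4 HD-MB03 libraries, the ringed one.

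CTNNB1 encodes β-catenin, which also links cadherins to the cytoskeleton at cell junctions. Its level was 820.4, 673 and 574 CPM in D425 parental 1, parental 2 and vector, and 379.8, 806 and 532 CPM in D425 shCRX 1, 2 and 3. In HD-MB03 it was 439 and 313 CPM in parental and vector and 491 and 466 CPM in shCRX 1 and 2. The D425 arms overlapped, and in HD-MB03 both libraries labelled shCRX were above both controls. Its log2 difference between arms was -0.27 in D425 (SE 0.26, edgeR adjusted p = 0.656) and 0.35 in HD-MB03 (SE 0.32, edgeR adjusted p = 0.614). The HD-MB03 value was 0.39 without HD-MB03 shCRX 2 (SE 0.40, edgeR adjusted p = 0.722).

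Of the TCF/LEF factors, TCF7L1, which acts mostly as a repressor of targets, was the most abundant per length in both lines. Its level was 72.7, 73.5 and 75.9 CPM in the D425 controls and 48.7, 37.8 and 55.5 CPM in the D425 shCRX libraries. In HD-MB03 it was 145 and 146 CPM in the controls and 126 and 118 CPM in the libraries labelled shCRX. The arms did not overlap in either line, with shCRX below. The change nevertheless missed the threshold in D425 (log2 difference -0.65, SE 0.18, edgeR adjusted p = 0.0693) and in HD-MB03 (-0.26, SE 0.21, edgeR adjusted p = 0.577). These became -0.65 (edgeR adjusted p = 0.0958) and -0.20 (edgeR adjusted p = 0.812) without HD-MB03 shCRX 2.

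TCF7L2, which activates or represses targets depending on its isoform, was at 23.8, 25.5 and 30.7 CPM in the D425 controls and at 21.3, 18.6 and 26.1 CPM in D425 shCRX. It was at 60.4 and 54.2 CPM in the HD-MB03 controls and at 45.5 and 39.1 CPM in the libraries labelled shCRX. Its arms overlapped in D425 and did not in HD-MB03, where shCRX was below. Neither difference passed the test (D425 -0.28, SE 0.20, edgeR adjusted p = 0.525; HD-MB03 -0.44, SE 0.25, edgeR adjusted p = 0.389). Leaving out HD-MB03 shCRX 2 gave -0.33 in HD-MB03 (SE 0.33, edgeR adjusted p = 0.712).

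LEF1, the factor that gives the family part of its name and is itself a target in many tissues, was at 7.84, 5.65 and 3.00 CPM in the D425 controls (140, 70 and 33 counts). In D425 shCRX it was at 10.6, 9.93 and 10.998 CPM (115, 48 and 43 counts), above all 3 controls. HD-MB03 parental, vector and shCRX 1 had 0 counts, and HD-MB03 shCRX 2 had 38 (2.72 CPM), at least 12.9-fold above shCRX 1 taken at 3 counts. The D425 difference did not pass (log2 0.92, SE 0.76, edgeR adjusted p = 0.592), and without HD-MB03 shCRX 2 in the fit it was 0.92 with an SE of 0.39 (edgeR adjusted p = 0.267). The labelled library kit does not mark strand, so reads where LEF1 and its antisense gene LEF1-AS1 overlap cannot be told apart.

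TCF7, encoding the factor TCF1, varied widely between replicates. It was at 3.42, 3.31 and 1.64 CPM in the D425 controls and at 5.45, 12.4 and 2.56 CPM in D425 shCRX, with overlapping arms and shCRX 2 far above the rest. HD-MB03 parental and vector had 2.60 and 1.07 CPM from 5 and 2 counts, shCRX 1 had 0.429 CPM from 6 counts, and shCRX 2 had 3.72 CPM from 52 counts. HD-MB03 shCRX 2 was thus 8.84-fold above its replicate (95% counting interval 3.80 to 25.2). The log2 difference between arms was 1.28 in D425 (SE 0.69, edgeR adjusted p = 0.375) and 0.17 in HD-MB03 (SE 1.10, edgeR adjusted p = 0.962), which became -2.06 without HD-MB03 shCRX 2 (SE 1.17, edgeR adjusted p = 0.464).

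Among the feedback inhibitors, AXIN2, a scaffold of the destruction complex and the usual readout of pathway activity, was low in both lines. It was at 3.81, 4.52 and 6.91 CPM in the D425 controls and at 4.98, 5.17 and 5.37 CPM in D425 shCRX, all within the range of the controls. It was at 8.85 and 11.8 CPM in the HD-MB03 controls (17 and 22 counts) and at 7.29 and 5.66 CPM in the libraries labelled shCRX, which were below both controls. AXIN2 differed between arms by 0.03 on the log2 scale in D425 (95% interval -0.69 to 0.75, edgeR adjusted p = 0.983) and by -0.67 in HD-MB03 (SE 0.42, edgeR adjusted p = 0.439), or -0.49 without HD-MB03 shCRX 2 (SE 0.53, edgeR adjusted p = 0.735).

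NKD1, which binds Dishevelled and dampens the signal, was at 10.5, 4.60 and 5.73 CPM in the D425 controls and at 12.7, 30.2 and 12.8 CPM in D425 shCRX. All 3 shCRX libraries were above all controls, and shCRX 2 was more than double the other shCRX libraries. The D425 difference was 1.40 on the log2 scale and missed the threshold (SE 0.39, edgeR adjusted p = 0.0758). In HD-MB03 the levels were 9.89 and 9.11 CPM in controls and 8.22 and 7.30 CPM in the libraries labelled shCRX, a log2 difference of -0.29 (SE 0.53, edgeR adjusted p = 0.816). The test of the difference between the lines' responses gave 1.70 (SE 0.66, edgeR adjusted p = 0.163). With HD-MB03 shCRX 2 left out, NKD1 had 1.40 in D425 (edgeR adjusted p = 0.0918), -0.20 in HD-MB03 (edgeR adjusted p = 0.935) and 1.60 in the difference (edgeR adjusted p = 0.288).

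RNF43, a ubiquitin ligase that removes Frizzled receptors from the cell surface, was near the detection limit. The D425 controls had 10, 12 and 9 counts (0.560, 0.968 and 0.818 CPM) and the D425 shCRX libraries 1, 0 and 0. Pooled over libraries this is a 13.3-fold ratio of controls to shCRX with a 95% counting interval of 2.21 to 540.3, and the edgeR adjusted p was 0.256. HD-MB03 had 0 counts in parental, vector and shCRX 1 and 28 counts (2.01 CPM) in shCRX 2, at least 9.52-fold above shCRX 1 taken at 3 counts.

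LGR5, a receptor for R-spondins that marks stem cells of several epithelia, was found mainly in 1 library of each line. D425 parental 2 had 19 counts (1.53 CPM), and the other 5 D425 libraries had 1 or 2. HD-MB03 shCRX 2 had 25 counts (1.79 CPM), at least 8.50-fold above shCRX 1, and the other 3 HD-MB03 libraries had 0. RNF43 and LGR5 passed the filter on low counts through these few libraries. Without HD-MB03 shCRX 2, RNF43 did not pass the filter and was not tested.

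DKK1, a secreted inhibitor that blocks the LRP co-receptors, had 1 count in D425 vector, 1 in HD-MB03 shCRX 2 and 0 in the other 8 libraries, and was the member that did not pass the filter. At 3 counts, the floor over all 6 D425 libraries was 0.0502 CPM and over all 4 HD-MB03 libraries 0.0913 CPM. Intervals and floors cover counting error alone.

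The response to the shCRX label can be put as counts of members called. In D425, 0 of the 9 members tested passed an adjusted p under 0.05 by edgeR's quasi-likelihood test, where 2.97% of all 16006 genes did, and 3 members had an unadjusted p under 0.05 (NKD1, TCF7L1 and RNF43), as had 17.3% of all genes. In HD-MB03, 0 of 9 passed, against 1.51% of all genes, and 0 had an unadjusted p under 0.05, beside 17.2%. The difference of the responses, D425 minus HD-MB03, was called for 0 of 9 (4.16% of all genes), with 2 under an unadjusted p of 0.05 (RNF43 and NKD1), beside 21.2%. The mean response of the lines was called for 0 of 9 (0.225% of all genes), with 2 under an unadjusted p of 0.05 (TCF7L1 and TCF7L2), beside 13.2%. DESeq2 called 2 members in D425, NKD1 and TCF7L1, where it called 6.19% of all genes, and 1 in the mean of the lines, TCF7L1, where it called 2.31%. Without HD-MB03 shCRX 2, 8 members were tested and 0 were called in D425 (2.59% of all genes), in HD-MB03 (0.0912%), in the difference (2.26%) and in the mean of the lines (0.0182%). An unadjusted p under 0.05 was then found in D425 for 4 members, TCF7, LEF1, NKD1 and TCF7L1 (16.6% of all genes), and in HD-MB03 for 0 (13.6%). In the difference it was found for 1, TCF7 (19% of all genes), and in the mean of the lines for 1, TCF7L1 (8.83%). Between vector and parental libraries 0 of 9 members and 0% of all genes were called in either line. With 1 vector library a line, and 1 parental library in HD-MB03, this does not show that they were alike: intervals were wide (AXIN2 -0.24 to 1.71 on the log2 scale in D425), and CRX was higher by 0.75 in D425 vector at an unadjusted edgeR p of 0.0454.

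Arms that did not overlap were common in all genes. In D425 this held for 4 of the 10 members, LEF1 and NKD1 with shCRX above and TCF7L1 and RNF43 with shCRX below, and for 23% of all genes tested. In HD-MB03 it held for 5, CTNNB1 with shCRX above and AXIN2, NKD1, TCF7L1 and TCF7L2 with shCRX below, and for 52.3% of all genes. TCF7L1 was the member that lay on the same side in both lines, and NKD1 lay on opposite sides. In D425 the separation of RNF43 rests on 1, 0 and 0 counts in shCRX. At 3 counts the floors of D425 shCRX 2 and 3 were 0.634 and 0.824 CPM, within the RNF43 range of the controls (0.560 to 0.968 CPM). The median log2 difference over the 9 members tested was -0.27 in D425 and 0.17 in HD-MB03, beside 0.02 and 0.10 over all genes tested. Without HD-MB03 shCRX 2 these medians, over 8 members, were -0.12 and -0.20.

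**Figure D3:**
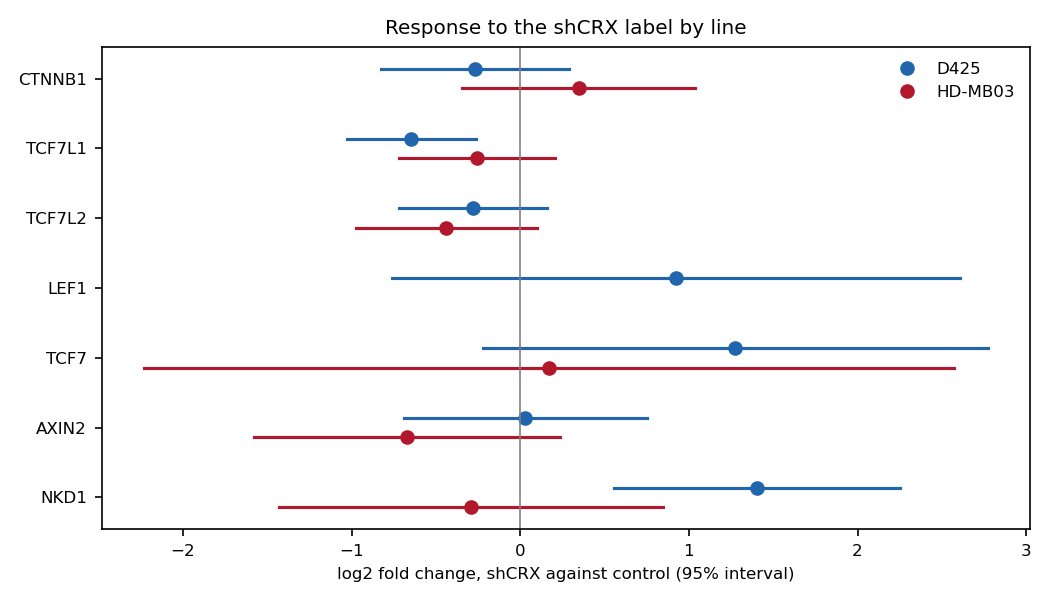
Log2 fold change of shCRX against control (x axis) with its 95% interval from edgeR, for 7 members, in D425 (blue) and HD-MB03 (red). LEF1 has no HD-MB03 point because 3 of 4 libraries had 0 counts. RNF43 and LGR5, which had few counts, are drawn for neither line, and DKK1 did not pass the filter. The D425 interval of RNF43, not drawn, was -7.08 to -0.213 (edgeR adjusted p = 0.256). The D425 intervals of NKD1 (0.56 to 2.25) and TCF7L1 (-1.03 to -0.27) do not reach 0, while their adjusted p-values were 0.0758 and 0.0693.

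The lines differed more than the arms. With each line taken as the mean of its arms, 4 of 9 members passed by edgeR, beside 46% of all genes. TCF7L1 was lower in D425 (log2 -1.17, SE 0.14, adjusted p = 2.14e-05) and so was TCF7L2 (-1.02, SE 0.16, adjusted p = 0.000212). For both factors all 6 D425 libraries lay below all 4 HD-MB03 libraries. LEF1 was higher in D425 (edgeR adjusted p = 0.00717), with 449 counts over its 6 libraries against 38 in HD-MB03, a 6.50-fold ratio of pooled CPM (95% counting interval 4.66 to 9.30). Without HD-MB03 shCRX 2 LEF1 stood at 449 counts against 0, at least 46.6-fold higher over a floor of 3 counts for the group. CTNNB1 was higher in D425 by 0.57 (SE 0.21, edgeR adjusted p = 0.0405), with overlapping libraries, and without HD-MB03 shCRX 2 it no longer passed (0.54, SE 0.25, edgeR adjusted p = 0.109). The CTNNB1 call was also lost without D425 parental 1, parental 2 or shCRX 3, or HD-MB03 vector or shCRX 1 (0.45 to 0.73 over all libraries left out). All libraries of one line lay clear of the other for 3 members (LEF1, TCF7L1 and TCF7L2), and for 29.1% of all genes tested.

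The other tested members did not pass between lines. AXIN2 was lower in D425 by 0.68 on the log2 scale (SE 0.27) at an edgeR adjusted p of 0.0529, and passed without D425 vector (-0.83, edgeR adjusted p = 0.0284). NKD1 differed by 0.40 (SE 0.33, edgeR adjusted p = 0.337). TCF7 differed by 1.15 (SE 0.64, edgeR adjusted p = 0.163), and without HD-MB03 shCRX 2 it passed, at 2.27 higher in D425 (SE 0.63, edgeR adjusted p = 0.0129). Without that library, 4 of 8 members passed, LEF1, TCF7, TCF7L1 and TCF7L2, beside 38.4% of all genes, and TCF7 had 249 counts in D425 against 13 in HD-MB03, a 5.96-fold ratio of pooled CPM (95% counting interval 3.42 to 11.3). Of the 13 TCF7 counts, 6 came from HD-MB03 shCRX 1, which holds most of the reads pooled there. Its 0.429 CPM lay below both controls. Between the controls of the lines the pooled ratio was 1.65-fold (95% counting interval 0.779 to 4.20). Within the low library numbers, TCF7 differed by 1.88 (SE 1.02, edgeR adjusted p = 0.176). Within the high, it differed by 0.43 with all libraries (SE 0.78, edgeR adjusted p = 0.713). Without HD-MB03 shCRX 2 it differed there by 2.66, with HD-MB03 shCRX 1 the only library of that line left in the range. RNF43 and LGR5 had 32 and 25 counts over the 6 D425 libraries and 28 and 25 over HD-MB03, all of the latter in shCRX 2.

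Since each line has libraries in both number ranges, the lines could be compared within a range. Among the high numbers, D425 control against HD-MB03 shCRX, TCF7L1 (-0.72, SE 0.19, edgeR adjusted p = 0.0116) and TCF7L2 (-0.67, SE 0.22, edgeR adjusted p = 0.0334) passed, 2 of 9 members beside 31.2% of all genes. CTNNB1 (0.53, SE 0.29, edgeR adjusted p = 0.194), AXIN2 (-0.36, SE 0.36, edgeR adjusted p = 0.483) and LEF1 (edgeR adjusted p = 0.132) did not. Without HD-MB03 shCRX 2, where 19.8% of all genes passed, LEF1 (edgeR adjusted p = 0.000677) and TCF7L1 (-0.78, edgeR adjusted p = 0.0484) passed, and TCF7L2 did not (-0.78, edgeR adjusted p = 0.0758). Among the low numbers, D425 shCRX against HD-MB03 control, 3 of 9 passed beside 30.7% of all genes: TCF7L1 (-1.62, SE 0.20, edgeR adjusted p = 7.07e-05), TCF7L2 (-1.38, SE 0.23, edgeR adjusted p = 0.000797) and LEF1 (edgeR adjusted p = 0.0242). TCF7L1 and TCF7L2 thus lay lower in D425 in both ranges, and by more in the low range, though the gap between ranges, which has the same test as the mean response of the lines, was called for neither (edgeR adjusted p = 0.206 for TCF7L1 and 0.361 for TCF7L2).

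**Figure D4:**
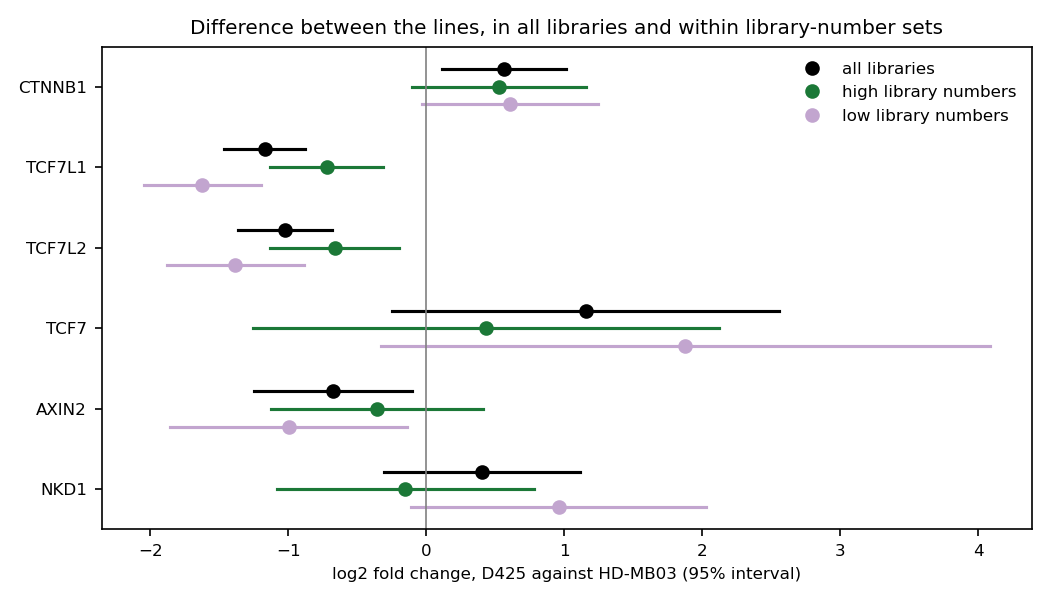
Log2 fold change of D425 against HD-MB03 (x axis) with its 95% interval from edgeR for 6 members, over all libraries (black), within the high library numbers (green) and within the low library numbers (lilac). TCF7L1 and TCF7L2 lie below 0 with intervals clear of 0 in all 3 comparisons; CTNNB1 lies at 0.53 to 0.61, with intervals that reach 0 within each range.

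Sequence upstream of the members is shown for TCF7L1, the member with the smallest adjusted p between the lines, and for DKK1, the member almost without reads. Both are the 250 bases before the RefSeq gene start in GRCh38.p14, a later build than that of the counts, and the start used in these cells may be another. TCF7L1 is on the plus strand (chr2:85133142-85133391), with 72% G or C and 24 CpG, and DKK1 also on the plus strand (chr10:52314031-52314280), with 62.8% and 18 CpG. Capitals mark the TCF/LEF letters CTTTGAT or CTTTGAA, searched on both strands.
TCF7L1: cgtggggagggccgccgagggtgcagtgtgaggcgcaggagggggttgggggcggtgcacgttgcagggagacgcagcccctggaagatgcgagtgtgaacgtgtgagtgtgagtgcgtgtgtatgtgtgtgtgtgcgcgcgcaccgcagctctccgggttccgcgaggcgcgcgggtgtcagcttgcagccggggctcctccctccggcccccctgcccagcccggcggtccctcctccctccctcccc
DKK1: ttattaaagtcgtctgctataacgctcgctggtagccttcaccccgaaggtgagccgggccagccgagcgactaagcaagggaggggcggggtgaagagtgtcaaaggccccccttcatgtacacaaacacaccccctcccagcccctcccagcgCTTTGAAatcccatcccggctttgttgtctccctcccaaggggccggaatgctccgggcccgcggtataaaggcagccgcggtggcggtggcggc
The DKK1 match is CTTTGAA on the plus strand, starting 95 bases before the gene start. Windows of 300 bases, 250 before to 50 after the start, were given for 7 of the 10 members, 11 windows in all, and AXIN2, NKD1 and LGR5 had none. The DKK1 window was the one of 11 with TCF/LEF letters, which 6.98% of 27305 promoters hold (1 start a gene). The letters TAATCC, bound by CRX and related homeobox factors, occurred in 1 of the 11 windows, 27 bases after a TCF7 start, and in 6.39% of promoters. A match here is a run of letters and not a measured site.

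Genes whose level ran most like a member's were found by Pearson correlation of log2 CPM over the 10 libraries, among protein-coding genes with a mean of at least 1 CPM. For TCF7L1 these were TBC1D30 (r = 0.989), SLC35F4 (0.989) and SDK1 (0.987), and for TCF7L2 DLG4 (0.979), MYL9 (0.974) and RCOR2 (0.972). For LEF1 they were HOXA13 (0.990), C1GALT1C1L (0.988) and MFAP2 (0.988), for AXIN2 STX1A (0.964), APOM (0.953) and ATG16L1 (0.921), and for CTNNB1 NUP93 (0.982), SLC38A5 (0.954) and EML4 (0.930). TCF7 ran most like DDX41 (0.925), UROD (0.919) and TMEM107 (0.910), and NKD1 like AVPI1 (0.900), TMEM50A (0.900) and SMAD9 (0.897). RNF43 ran most like NUP210 (0.940), PRKCSH (0.917) and NRP1 (0.910), and LGR5 like SLIT2 (0.827), AARSD1 (0.819) and ATAT1 (0.800). The points share the gap between lines and the range of depths, so these values are a description. Over the 9 libraries without HD-MB03 shCRX 2, r fell to 0.671 for SLIT2 and 0.638 for ATAT1 with LGR5, and to 0.852 for NRP1 with RNF43. The other 24 pairs then had r of 0.834 or more.

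The members' setting was described with 176 further genes of the pathway in 11 lists, of which 128 passed the filter. In D425, 4 were higher and 4 lower in shCRX by edgeR, beside 1.61% and 1.37% of all genes. In HD-MB03, 0 were higher and 2 lower in the libraries labelled shCRX, beside 0.262% and 1.24%. The difference of responses was called for 8 higher and 3 lower (2.67% and 1.49%), and D425 against HD-MB03 for 34 higher and 40 lower (24.4% and 21.6%). Over the 128 genes the median log2 difference between lines was -0.02, beside 0.05 over all genes. Without HD-MB03 shCRX 2, 127 were tested, with 4 higher and 5 lower in D425 (1.45% and 1.14% of all genes) and 0 in either direction in HD-MB03 (0.0122% and 0.0791%). The difference then gave 4 higher and 3 lower (1.38% and 0.882%), and the lines 30 higher and 36 lower (20.8% and 17.6%). In each list below, the counts of calls between lines stand beside these same shares of all genes. The shares were 24.4% higher and 21.6% lower, or 20.8% and 17.6% without HD-MB03 shCRX 2. In 11 of the 176 genes HD-MB03 shCRX 2 was the one HD-MB03 library with reads past the limits given above, among them the ligand WNT11 (22 counts) and the inhibitors DKK3 (17) and SFRP1 (39).

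Of 19 WNT ligands, 7 were tested. Between lines 1 was higher and 4 lower in D425, with a median log2 difference of -1.07 beside 0.05 over all genes (0 higher and 3 lower without HD-MB03 shCRX 2). WNT3 was at 1.28 to 3.23 CPM in D425 and at 13.4 to 17.0 CPM in HD-MB03 (log2 -2.72, SE 0.31, edgeR adjusted p = 1.82e-05). WNT5B lay between 0 and 1.94 CPM in D425 and between 6.93 and 24.7 CPM in HD-MB03 (-3.50, SE 0.48, edgeR adjusted p = 9.18e-05). WNT5A, a ligand best known for signals that bypass β-catenin, was also lower in D425 (-1.07, SE 0.20, edgeR adjusted p = 0.000838). WNT10A rose in D425 shCRX, from 0.448, 0.242 and 0.273 CPM to 1.66, 1.86 and 1.28 CPM (2.24, SE 0.53, edgeR adjusted p = 0.0398), a call lost on leaving out any of the 10 libraries (2.04 to 2.58). PORCN, the acyltransferase that readies WNT ligands for secretion, was at 47.3 to 60.4 CPM in D425 and 16.1 to 22.7 CPM in HD-MB03 (1.52, SE 0.16, edgeR adjusted p = 7.54e-06).

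All 17 Frizzled receptors and co-receptors listed were tested, and 5 were higher and 3 lower in D425 than in HD-MB03 (6 and 3 without HD-MB03 shCRX 2). FZD8 was at 1.27 to 2.69 CPM in D425 and 12.7 to 21.9 CPM in HD-MB03 (-2.91, SE 0.25, edgeR adjusted p = 1.62e-06). PTK7, a co-receptor, was at 28.6 to 37.5 CPM in D425 and 108 to 136 CPM in HD-MB03 (-1.83, SE 0.13, edgeR adjusted p = 3.02e-07). FZD10 (2.18, SE 0.55, edgeR adjusted p = 0.00613), FZD2 (1.44, SE 0.28, edgeR adjusted p = 0.0012) and FZD3 (1.14, SE 0.24, edgeR adjusted p = 0.00202) were higher in D425. FZD10 had 3, 0 and 15 counts in HD-MB03 parental, vector and shCRX 1 and 58 in shCRX 2, and its difference became 2.81 without shCRX 2 and 5.19 without HD-MB03 parental, where the remaining control has 0 counts. With all libraries in the fit, FZD1 alone of the 17 passed between arms: it rose in D425 shCRX from 16.6, 15.01 and 24.99 CPM to 39.6, 69.5 and 39.9 CPM (1.40, SE 0.28, edgeR adjusted p = 0.0201). That call was lost without D425 parental 1, parental 2 or shCRX 2 (1.06 to 1.65 over all libraries left out). Without HD-MB03 shCRX 2, FZD1 (1.39, edgeR adjusted p = 0.0224) and ROR2 (1.78, edgeR adjusted p = 0.0302) were higher and FZD3 (-1.14, edgeR adjusted p = 0.0415) lower in D425 shCRX.

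Beside the members RNF43 and LGR5, the list of R-spondins, their receptors and ligases had 7 genes, of which 3 were tested. ZNRF3, the paralogue of RNF43 with the same task, was far above it, at 30.2 to 42.2 CPM in D425 and 54.7 to 65.6 CPM in HD-MB03, and was lower in D425 (-0.71, SE 0.16, edgeR adjusted p = 0.00293). LGR4, the paralogue of LGR5, was at 36.4 to 76.9 CPM in all 10 libraries. The CPM of these pairs are not set per length, and 0 of the 3 tested genes passed between arms.

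Beside DKK1, 6 of 18 inhibitors that are secreted or sit in the membrane were tested, and 2 were lower and 1 higher in D425. APCDD1 was at 7.75 to 38.9 CPM in D425 and at 87.4 to 133 CPM in HD-MB03 (-2.36, SE 0.27, edgeR adjusted p = 2.39e-05). NOTUM, an esterase that inactivates WNT ligands, was at 0.364 to 2.30 CPM in D425 and 5.73 to 10.1 CPM in HD-MB03 (-2.49, SE 0.42, edgeR adjusted p = 0.000378). Neither passed between arms.

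Of 28 genes of the destruction complex and signal transduction, 26 were tested. Between lines 8 were higher and 2 lower in D425 (5 and 1 without HD-MB03 shCRX 2), APC among the higher (0.83, SE 0.17, edgeR adjusted p = 0.0019). BTRC, the ubiquitin ligase subunit that recognises phosphorylated β-catenin, fell in D425 shCRX from 198, 161 and 159 CPM to 72.9, 94.5 and 94.6 CPM (-0.99, SE 0.23, edgeR adjusted p = 0.0373). The BTRC call was lost without D425 parental 1, vector, shCRX 1, shCRX 2 or shCRX 3 (-1.08 to -0.88). CSNK1G1, a casein kinase, fell as well (-0.997, SE 0.25, edgeR adjusted p = 0.0482), and its call was lost on leaving out 6 of the 10 libraries, 4 of D425 and both HD-MB03 controls (-1.15 to -0.77). DVL1, a Dishevelled protein that relays the receptor signal, fell in the HD-MB03 libraries labelled shCRX from 239.9 and 209.6 CPM to 94.6 and 112 CPM (-1.12, SE 0.22, edgeR adjusted p = 0.0288). That call was lost without HD-MB03 parental, shCRX 1 or shCRX 2.

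Of 22 nuclear cofactors and corepressors, 21 were tested, with 6 higher and 7 lower in D425 than in HD-MB03 (4 and 6 without HD-MB03 shCRX 2). TLE5, a short relative of the Groucho corepressors that bind TCF factors, went opposite ways in the lines. It rose in D425 shCRX from 121, 110 and 110 CPM to 158, 201 and 190 CPM (0.69, SE 0.16, edgeR adjusted p = 0.0411), a call that held in 1 of 10 fits with a library left out, that without D425 shCRX 1 (0.60 to 0.77). It fell in the HD-MB03 libraries labelled shCRX from 222 and 203 CPM to 91.1 and 92.2 CPM (-1.21, SE 0.20, edgeR adjusted p = 0.0138), a call lost without HD-MB03 parental, shCRX 1 or shCRX 2 (-1.25 to -1.13). The difference of the responses, 1.90 (SE 0.26, edgeR adjusted p = 0.00219), was kept in all 10 fits with a library left out. In both lines TLE5 was higher in the libraries with low numbers. Arm and library-number range cannot be told apart here, and leaving out a library does not change that.

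Of 27 further target genes, 18 were tested, and 11 were lower and 3 higher in D425, with a median log2 difference of -1.15 beside 0.05 over all genes. The median without HD-MB03 shCRX 2 was -1.10, with 11 lower and 4 higher. SP5, a transcription factor and a direct target of the pathway in many tissues, had 0, 0, 0, 4, 1 and 0 counts in D425 and 10, 17, 25 and 28 counts in HD-MB03 parental, vector, shCRX 1 and shCRX 2 (edgeR adjusted p = 2.67e-05 between lines). CD44, an adhesion receptor, had 22, 7 and 6 counts in the D425 controls and 0 in each D425 shCRX library, a fall by edgeR (adjusted p = 0.0237) that was lost without D425 parental 1, shCRX 1 or shCRX 3. It was at 20.9 to 39.0 CPM in HD-MB03. EFNB1, an ephrin, rose in D425 shCRX from 7.89, 6.37 and 7.45 CPM to 17.0, 15.7 and 14.6 CPM (1.12, SE 0.22, edgeR adjusted p = 0.0177), a call lost without D425 parental 1, parental 2, vector, shCRX 1 or shCRX 3. Many of these genes also answer to other pathways.

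**Figure D5:**
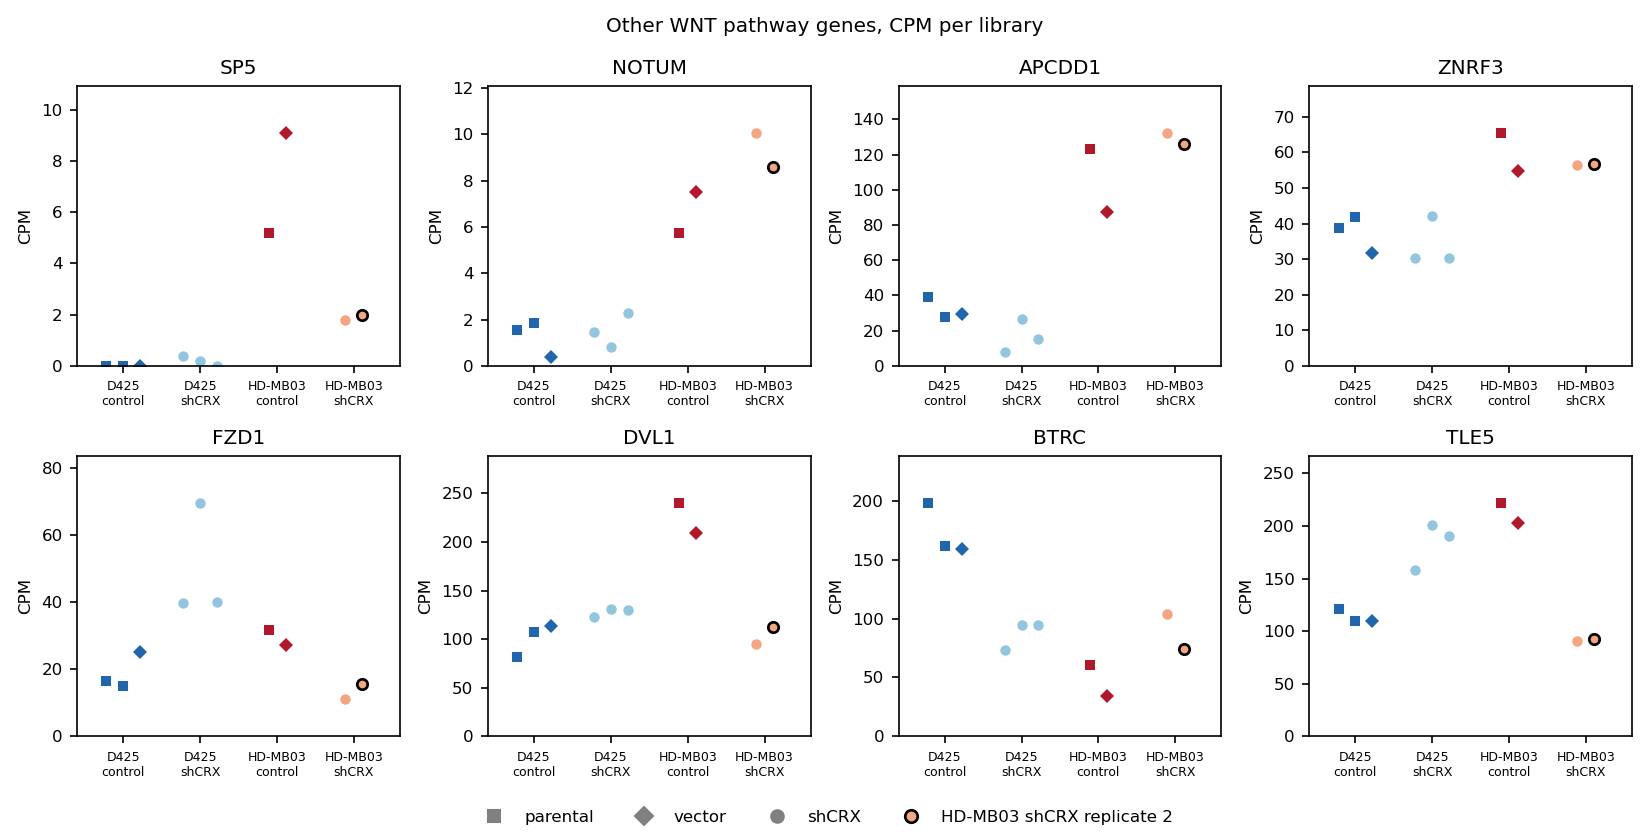
CPM (y axis, linear, own scale in each panel) of 8 pathway genes around the members in each library, with squares for parental, diamonds for vector and circles for shCRX libraries and HD-MB03 shCRX 2 ringed in black. SP5, NOTUM, APCDD1 and ZNRF3 lie lower in all 6 D425 libraries than in HD-MB03, while FZD1, DVL1, BTRC and TLE5 move with the arm in at least 1 line.

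Of 13 matched genes used to tell the WNT subgroup of medulloblastoma, 7 were tested. Between lines 5 were higher and 2 lower in D425, beside 24.4% and 21.6% of all genes. The median log2 difference was 2.54, beside 0.05 over all genes. Without HD-MB03 shCRX 2 it was 3.95, beside 0.08. The subgroup's secreted inhibitors WIF1 and DKK4 had 0 counts in all 10 libraries, and DKK2 had 0 in HD-MB03 and 23 counts over D425. The 7 tested include GABRE, at 7.95 to 51.7 CPM in D425 and at 0 counts in HD-MB03 outside shCRX 2, and TNC, at 2.69 to 66.6 CPM in D425 and 35.9 to 592 CPM in HD-MB03. In both lines, 0 of the 7 passed between arms.

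At junctions, where β-catenin has its other role, 6 of 11 cadherins and catenins were tested, with 1 higher and 3 lower in D425 than in HD-MB03 (2 and 3 without HD-MB03 shCRX 2). CDH11 (-2.65, SE 0.22, edgeR adjusted p = 1.22e-06), CDH2 (-2.86, SE 0.55, edgeR adjusted p = 0.00131) and CTNND1 (-0.74, SE 0.12, edgeR adjusted p = 0.000378) were lower in D425, and CTNNA1, the α-catenin that binds β-catenin, was higher (0.78, SE 0.16, edgeR adjusted p = 0.00152). CDH2 became -1.85 without HD-MB03 shCRX 2, where it had 413 counts against 8, 35 and 58 in the other HD-MB03 libraries, and -2.12 without HD-MB03 vector. In the planar polarity and calcium branch, 18 of 20 matched genes were tested, and 3 were higher and 8 lower in D425 (3 and 7 without HD-MB03 shCRX 2). VANGL1 was at 0 to 0.738 CPM in D425 and 13.7 to 36.5 CPM in HD-MB03 (edgeR adjusted p = 1.41e-06), and DAAM2 fell in D425 shCRX from 5.26, 4.36 and 7.45 CPM to 1.94, 2.27 and 0.767 CPM (-1.69, SE 0.33, edgeR adjusted p = 0.0173), a call lost without D425 vector or shCRX 3 (-1.89 to -1.46).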

How the data were processed

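Poly(A)-selected RNA of 10 libraries was sequenced, and the authors deposited 1 table of raw read counts per gene for each library. The submitters' processing notes name the tools bcl2fastq, HISAT2, HTSeq, DESeq2 and the build GRCh37 (hg19); versions are not given in the sources used here. A table lists 57820 gene identifiers, of which 51996 could be matched to a symbol, and 5 summary entries that were left out. Reads counted in genes were 50.5% to 79.3% of all reads. At 3 counts, the floor was 0.166 CPM in the deepest library and 1.53 CPM in the shallowest.

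Counts were tested in R 4.3.3 with edgeR 4.0.16: TMM scaling, filterByExpr on the 4 line-by-arm groups (minimum count 10), and a robust quasi-likelihood fit with 4 means and 6 residual degrees of freedom, with 16006 genes tested, 488 of them without a symbol. The common biological coefficient of variation came to 26.0%. All tests are two-sided, with Benjamini-Hochberg adjustment over all genes tested, and a gene was called under 0.05. Parental and vector libraries of a line were pooled as its controls. CPM are counts over the effective library size, while Poisson intervals and floors use the library total. Exon lengths came from GENCODE v29, a GRCh38 annotation, so no positions of genes are given; promoter windows are RefSeq's. No replicate pair held identical values (chi-square per degree of freedom 18.7 to 58.7). Since no label states separate cultures, the p-values reflect only how much these samples vary, and that spread may be technical. The fit was tested on simulated counts.

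All 10 members are named whatever their values, with the 3 genes most like each tested member, and CRX. Called genes of each pathway list could be named, at most 6 per list and comparison by size of change. A gene in more than 1 list counts under each. Not all genes within that limit are described. Between lines, those left out include CCND1, SOX9 and NFATC1, lower in D425, and NEUROG1 and APC2, higher in D425. These calls were kept in all 10 fits with a library left out. EPCAM, KRT18, the further pathway genes given as examples (LGR4, WNT11, DKK3, SFRP1, WIF1, DKK4, DKK2, ROR2) and the marker values around HD-MB03 shCRX 2 fall outside that rule or were chosen after their values were seen. The members and lists were chosen with earlier results of these data known. The other marker lists summed, per library, to 20.9 to 96.0 CPM (fibroblast and mesenchyme), 0.277 to 2.09 (endothelial), 2.90 to 16.8 (leukocyte) and 10.7 to 21.3 (glial). Alternatives were other scalings and filters, DESeq2 1.42.0, limma 3.58.1 with voom, single control kinds, a replicate block, equal depth, a GC correction and each library left out; fits within library-number ranges, counts over pathway lists and likenesses, each without HD-MB03 shCRX 2, were added after seeing the data.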

Additional observations from a re-analysis of the deposited data

Results flagged for a closer look

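The response to the shCRX label differed between the lines, by edgeR's test of the difference itself (D425 minus HD-MB03, log2), for 0 of the 9 members tested, for CRX and for 11 pathway genes. CRX had -2.14, falling in D425 and not in HD-MB03. The difference was -1.89 for BTRC and -1.83 for DAAM1. It was 1.41 for CSNK1G2, 1.47 for DVL1, 1.47 for EFNB1 and 1.32 for HDAC1. It was 2.54 for FZD1, 3.83 for TLE2 and 1.90 for TLE5. For CD44 (-5.54) and SP5 (6.14) the fitted value rests on a D425 arm with 0 counts in all 3 libraries and gives no size. Arm and library-number range change sides together between the lines, so an equal difference between ranges would fall on this comparison, and arm and range cannot be told apart here. With a library left out, the call was kept in all 10 fits for TLE5, in 9 for BTRC (lost without HD-MB03 shCRX 1) and TLE2 (lost without HD-MB03 vector), in 8 for FZD1 and DVL1 (lost without HD-MB03 parental or shCRX 1), in 6 for DAAM1, in 4 for CSNK1G2, in 2 for EFNB1 and in 1 each for HDAC1, SP5 and CD44.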

How the results depend on the processing

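In D425, 0 members were called under the other settings not named here and with any 1 library left out, but 3 with no filter on low counts (NKD1, RNF43 and TCF7L1), 2 by DESeq2 (NKD1 and TCF7L1), 1 at equal depth (NKD1) and 1 with the GC trend removed (TCF7L1). The difference of responses gave 1 with no filter (RNF43), and 0 to 1 with a library left out (RNF43 without HD-MB03 shCRX 1). Without HD-MB03 shCRX 1, that arm is left with shCRX 2 alone, which holds all 28 HD-MB03 counts of RNF43. The mean of the lines gave 1 by DESeq2 (TCF7L1). HD-MB03 gave 0 in all settings run. Between lines the count of 4 became 2 with vector controls alone, 2 within the high library numbers and 2 there without HD-MB03 shCRX 2, and was 3 to 5 with a library left out. TCF7L1 and TCF7L2 passed in 21 of 21 alternatives, LEF1 in 20, CTNNB1 in 12 and AXIN2 in 6. The causes of these changes were not tested. Replicate numbers are shared by D425 parental 1 and 2 and shCRX 1 and 2 alone, and same-numbered libraries did not deviate together (r = 0.0137 across genes). A replicate block gave 0 members in D425, 0 in HD-MB03, 0 in the difference, 0 in the mean and 4 between lines. Over all genes, calls with no filter, by DESeq2, with parental and with vector controls alone were 1211, 990, 104 and 8 in D425 (476 as reported), 790, 793, 62 and 1 in HD-MB03 (241), 1579, 1358, 227 and 3 in the difference (666) and 405, 369, 2 and 0 in the mean of the lines (36). Vector controls alone gave 4613 between lines (7365). Equal depth gave 307 in D425, and the GC correction 336 in the difference and 61 in the mean. The mean gave 18 with library totals, 18 by limma and 57 with the block, and limma gave 169 in HD-MB03. Leaving out a library gave 185 to 430 in D425, 15 to 329 in HD-MB03, 177 to 841 in the difference and 3 to 71 in the mean. Scaling by library totals moved the median log2 difference of all genes in D425 from 0.02 to 0.15, and the calls higher in shCRX from 257 of 476 to 367 of 518; the GC correction gave 187 of 433. No called value turned its direction. Of the values of members and CRX that were not called, 35 changed sign or became 0 in an alternative. Over the alternatives, TCF7 in HD-MB03 ran from -2.06 to 1.01 and LGR5 in D425 from -1.92 to 1.06. HD-MB03 controls, with 1956353 and 2083297 reads, limit what can be seen of RNF43, LGR5, LEF1 and DKK1 there: 3 counts are 1.53 and 1.44 CPM.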
